A study of Drosophila melanogaster with 5 samples.

Results

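The genome annotation behind these RNA-seq counts lists 5578 transposable element insertions, and 1077 of them lie off chromosome 4 and are at least 2000 bases long. These 1077 long insertions were chosen by biotype, chromosome and length alone, without use of any measured value, out of 24034 counted features. Their median length was 5177 bases, and the longest spanned 66001 bases. By element family name they were 655 LTR retrotransposons, 336 non-LTR retrotransposons and 63 DNA transposons, and 23 carried no family name. The insertions just inside the length limit were the F copy FBti0061312, FBti0019242 and the NOF copy FBti0019954 at 2000, 2004 and 2006 bases, with 0 to 7 counts in any column. The 3 just outside it were 1961 to 1978 bases long, with 0 to 12 counts.

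Transposable elements are DNA sequences that can copy or move themselves within a genome. LTR retrotransposons such as copia and gypsy and non-LTR retrotransposons such as Doc and jockey move through an RNA copy that is reverse transcribed, whereas DNA transposons move as DNA. In Drosophila, piRNAs bound by Piwi proteins silence elements mainly in the gonads, siRNAs made by Dcr-2 and bound by AGO2 act in the rest of the body, and heterochromatin proteins and the linker histone H1 package many insertions into compact chromatin.

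PolyA RNA from Drosophila melanogaster heads (the labels also call the tissue brain) was counted in 5 samples, 1 per group. At 25 °C there was a wild-type control and a group fed 4 g/L Levodopa, the dopamine precursor, for 7 days, each with 2 count columns. At 29 °C there was a wild-type control, a group fed Levodopa in the same way and an H1 overexpression group (H1OE), each with 1 column. In H1OE, an Elav-temperature sensitive driver, active in neurons, was combined by a cross at 18 °C with a strain carrying H1 for overexpression, and the offspring were then held 7 days at 29 °C. Strain names, sex, age and the number of flies pooled are not given in the labels used here, and the wild-type control is not stated to carry the driver. H1OE and genetic background therefore cannot be told apart. Fly stocks are known to differ in the insertions they carry, and whether an annotated insertion is present in the flies used was not tested. The design text asks whether histone H1 is needed, and enough, for the depression-like state that follows Levodopa feeding. The labels do not say how the 2 columns of a 25 °C sample relate to separate flies, so a p-value at 25 °C reflects column-to-column spread alone, possibly technical.

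Each column at 25 °C held 25947583 to 30334054 counts in all, and each library at 29 °C held 24770629 to 26832877. All 14 neuron, photoreceptor and glia markers were detected in every column, with neuron markers summing to 1565 to 2975 CPM (counts per 1000000 of the library, its size scaled by the trimmed mean of M-values, TMM). With Levodopa at 25 °C all 6 neuron markers had a log2 fold change above 0 (0.34 to 0.70, median 0.57) and 3 of 4 glia markers one below 0 (median -0.24), with 0 of either past the 2-fold limit. Photoreceptor markers summed to 33269 to 43385 CPM and muscle markers to 906 to 2420 CPM over all columns. The 23 His1 genes together had 1 count in all columns, so the overexpressed gene could not be checked in this polyA RNA. Markers of fat body, a tissue of the head capsule, moved with the groups. The 5 genes, of which Obp99b held most counts at 25 °C, summed to 2331 and 2380 CPM in the 25 °C control columns and to 333 and 343 CPM with Levodopa. At 29 °C they summed to 3851, 1754 and 215 CPM in control, Levodopa and H1OE. The edgeR test at 25 °C called 2 of the 4 tested lower and 1 higher. The mitochondrial share of counts was 13.0 and 13.2% in control and 19.2 and 20% with Levodopa at 25 °C, and 4.47 to 5.23% at 29 °C. The part of these shifts in the results below was not tested, and in bulk heads fewer cells of a type and less RNA per cell cannot be told apart.

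Counts on the long insertions were few and uneven. Of the 1077, 239 had no count in any column, 523 had counts but never 10 in a column, and 315 reached 10 counts in at least 1 column. Only 118 reached 50 summed counts in a group. A count of 0 allows up to 3 counts, or 0.0989 to 0.121 CPM per column, and all counting intervals given here are exact 95% intervals that cover counting error only. Copies of 1 family can be nearly identical, and how reads that match several copies were assigned is not given in the sources used here, so values of single copies are uncertain and family sums are given beside them. Likewise 539 insertions overlapped the span of a gene, 83 of them an exon, and the strand setting of the counting is not given, so reads of that gene's transcript and of the insertion cannot be told apart there. Overlaps of insertions with each other are not given here, so the longest spans may hold reads of other insertions.

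The long insertions took 0.0729 and 0.0728% of all counts in the control columns at 25 °C, 0.133 and 0.134% in the Levodopa columns, and 0.0363, 0.0373 and 0.0393% in control, Levodopa and H1OE at 29 °C. Both Levodopa columns at 25 °C thus lay well above both control columns, while the 3 libraries at 29 °C were close to each other. On TMM-scaled libraries the summed level was 1.66 times the control level with Levodopa at 25 °C, and 0.992 and 1.03 times with Levodopa and H1OE at 29 °C. Short insertions off chromosome 4 and insertions on chromosome 4 had ratios of 1.56 and 1.64 with Levodopa at 25 °C, near that of the long insertions.

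**Figure D1:**
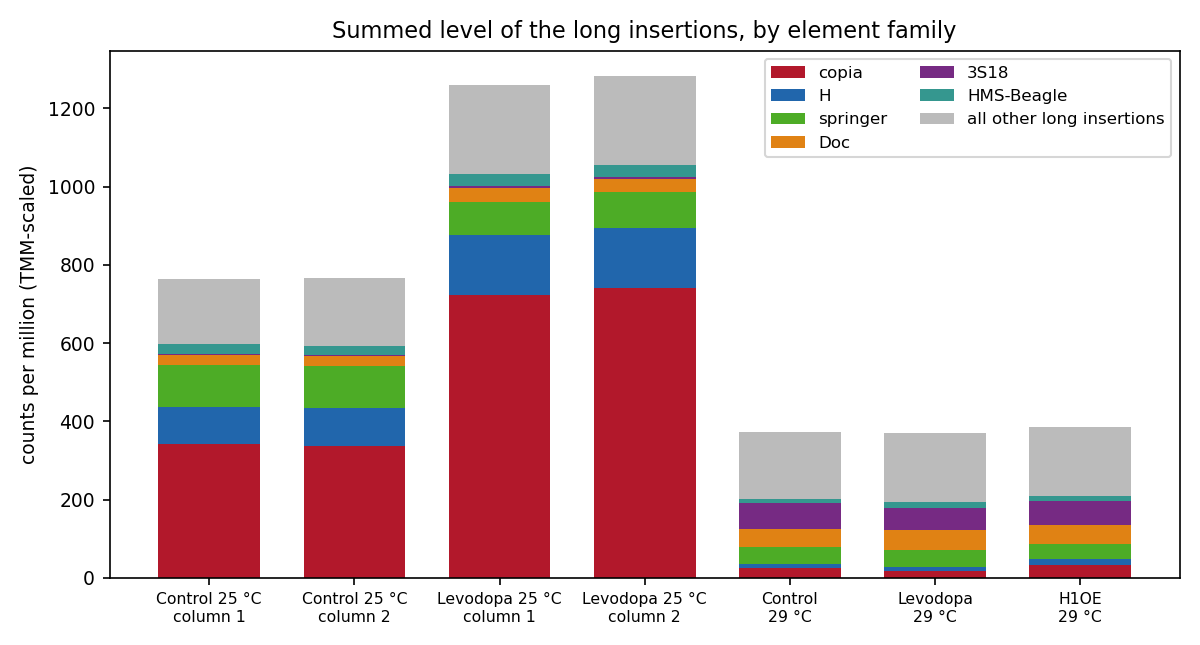
Summed TMM-scaled CPM of the 1077 long insertions in each count column, stacked by the 6 families with the most counts and all others. Copia makes up 44.0 to 57.6% of the long-insertion counts at 25 °C and 4.55 to 8.17% at 29 °C, where 3S18 is more abundant.

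A few insertions carried most of the signal, and a different one led at each temperature. The 10 most abundant insertions of a column held 67.5 to 70.6% of its long-insertion counts at 25 °C and 42.6 to 45.7% at 29 °C. At 25 °C the most abundant was the copia insertion FBti0019193 in an intron of CadN2, a neuronal cadherin gene (chromosome arm 2L, 17819978 to 17825122, minus strand, dm6). It alone held 24.2 to 31.0% of the long-insertion counts there. At 29 °C the most abundant in all 3 libraries was the Doc insertion FBti0019430 (3R, 25324412 to 25328927), which overlaps an exon of CHKov1 on the same strand. It held up to 12.8% of the long-insertion counts at 29 °C.

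Per kilobase and averaged over the 5 groups, the ranking by level was led by copia FBti0019193 with 22.4 CPM per kb. The H element insertion FBti0019603 in an intron of nAChRalpha3, an acetylcholine receptor subunit gene, followed with 19.3 CPM per kb. Doc FBti0019430 in CHKov1 had 7.96 CPM per kb, followed by copia FBti0019469 in Gprk2 with 6.66 and springer FBti0019466 in Sox100B with 5.18. The remaining 5 of the 10 most abundant were 3S18 FBti0019554, copia FBti0019183, springer FBti0019578, 3S18 FBti0062015 and Cr1a FBti0060472, at 1.68 to 3.42 CPM per kb. Of the 10, Doc FBti0019430 and Cr1a FBti0060472 differed least between groups: Doc had 4.56 and 5.92 CPM per kb in control and Levodopa at 25 °C and 9.37 to 10.5 at 29 °C.

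With Levodopa at 25 °C, 17 of the 30 copia insertions tested rose, an accord insertion rose most among the well counted, and 13 insertions of other families rose as well. Of 235 long insertions tested, 31 rose and 1 fell at an adjusted p of 0.05 and 2-fold change (edgeR quasi-likelihood test, Benjamini-Hochberg over 11799 features). That is 13.2% higher and 0.426% lower, where 2.02% of all features tested were called higher and 3.14% lower. Their median log2 fold change was 0.53, with 188 of 235 above 0, beside a median of 0.00 over all features and of 0.57 over the neuron markers, whose part in the result was not tested. Some insertions reached the 10 counts needed only through the group where they were high, so these values describe the insertions that entered the test, not all 1077. Short insertions off chromosome 4 had 41 of 329 called higher (12.5%, median 0.73), and insertions on chromosome 4 had 36 of 228 (15.8%, median 0.76).

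Log2 fold changes at 25 °C rose with feature length over all features tested (Spearman's rho 0.354, n = 11799 features of the same libraries). Within the long insertions tested they fell with length (rho -0.203, n = 235). Protein-coding genes of 4000 to 6000 bases had a median of 0.31. Long insertions of that length had a median of 0.93 (n = 79). Those of 2000 to 4000 bases had 0.57 (n = 41) beside 0.01 for genes of that length. Above 6000 bases, the range with the most long insertions tested, the order was reversed. There long insertions had a median of 0.32, below the 0.46 of protein-coding genes. Copia insertions are part of these values. Of the 32 long copia insertions, 30 were of 5000 bases or more, and the 30 tested had a median of 1.02. Medians by length and rho without copia are not given here, so the part of that family in them was not tested. With a smooth length trend over all features removed, 12 of the 235 long insertions passed as higher and 2 as lower, with a median of 0.24. The share of all features passing in that setting is not given here, so these counts have no background beside them. When the second Levodopa column was left out, 20 long insertions were called higher.

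Copia accounted for 17 of the 31 insertions that rose, and for 2 of the 12 that passed with the length trend removed. The 32 long copia insertions summed to 8452 and 9249 counts in the control columns and 22873 and 23424 with Levodopa. Both Levodopa columns lay above both control columns, and the family sum rose 2.16-fold (interval 2.12 to 2.19; log2 fold change 1.11, SE 0.02, edgeR adjusted p = 4.1e-86), or by 0.82 on the log2 scale with the length trend removed, which is under the 2-fold limit. Of the 30 single copies tested, 13 did not pass. A total of 29 had a log2 fold change above 0 and 29 had both Levodopa columns above both control columns, with a range of -0.12 to 1.49 and a median of 1.02. Without the dominant copy FBti0019193 the copia sum was 2.23-fold higher (interval 2.17 to 2.29). Without all copia insertions, the summed level of the long insertions was 1.27 times the control level, and 14 of them rose (6.83% of those tested).

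The copy in CadN2, FBti0019193, had 4644 and 5075 counts in control and 12121 and 12601 with Levodopa, which is 186 ± 1.7 and 390 ± 10.8 CPM (SD, n = 2 columns). Its log2 fold change was 1.07 (SE 0.03). CadN2 itself had a log2 fold change of 0.59 at 25 °C. The copy in an intron of Gprk2, FBti0019469 (3R, 31413145 to 31418286), lies on the strand opposite to that G protein-coupled receptor kinase gene. It had 1188 and 1302 counts in control and 3546 and 3596 with Levodopa, a log2 fold change of 1.24 (SE 0.05, edgeR adjusted p = 2.23e-138), beside 0.59 for Gprk2. FBti0019183 (2L, 16141218 to 16146366), which overlaps no gene, had 531 and 689 counts in control and 1814 and 1727 with Levodopa, a log2 fold change of 1.26 (SE 0.07, edgeR adjusted p = 2.07e-76). In all 3 both Levodopa columns lay far above both control columns, and none of the 3 stayed past 2-fold with the length trend removed (0.78, 0.95 and 0.97).

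The accord insertion FBti0018951 rose most among insertions with at least 50 counts in a group. Accord is an LTR retrotransposon, and this is its only long insertion off chromosome 4. It lies on arm 2R in an intron of CG17574, on the opposite strand, and had 1.21 and 1.42 CPM in the control columns (30 and 39 counts) against 9.47 and 9.38 CPM with Levodopa. The fold was 7.13 (interval 5.55 to 9.29), with a log2 fold change of 2.83 (SE 0.20, edgeR adjusted p = 1.12e-45), and 2.53 remained with the length trend removed. CG17574 went the other way, with a log2 fold change of -0.52. At 29 °C the same insertion had 24, 33 and 36 counts in control, Levodopa and H1OE, and the ratio of Levodopa to control was 1.27 (interval 0.727 to 2.24).

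The next largest rises by the same rule were smaller and rested on fewer counts. Fw2 FBti0062423, a non-LTR element copy in CG34357, had 10 and 16 counts in control and 43 and 47 with Levodopa (log2 fold change 1.51, SE 0.47, edgeR adjusted p = 0.00257). Copia FBti0059745 on 2L had 26 and 32 counts in control and 103 and 95 with Levodopa (1.49, SE 0.29, edgeR adjusted p = 8.33e-07). Quasimodo FBti0062048, an LTR element copy of 17552 bases, had 14 and 11 counts against 39 and 44 (1.44, SE 0.49, edgeR adjusted p = 0.00625), and the transib3 copy on 2R, a DNA transposon, had 10 and 7 against 35 and 20 (1.40, SE 0.62, edgeR adjusted p = 0.0424). In each of the 4 the column ranges did not overlap. The calls of Fw2, Quasimodo and transib3 were lost when 1 or more single columns were left out, and the transib3 call was also lost in DESeq2. Of the 31 that rose, 7 had fewer than 20 counts over both control columns. The 1 insertion that fell, telomeric HeT-A copy FBti0062861 (named after its values were seen), had 12 and 6 counts in control and 0 and 2 with Levodopa, a log2 fold change of -3.29 (SE 1.28, edgeR adjusted p = 0.0185). No insertion was called lower when either control column or the first Levodopa column was left out.

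Not all abundant insertions passed the 2-fold limit as higher. Springer FBti0019466 (3R, 31074284 to 31081826), in an intron of Sox100B on the opposite strand, had 2463 and 2759 counts in control and 2473 and 2619 with Levodopa, a log2 fold change of -0.32 (SE 0.04, edgeR adjusted p = 9.57e-12) under the 2-fold limit. The H copy FBti0019603 (X, 8293303 to 8296283) had 2384 and 2673 counts in control and 4842 and 4896 with Levodopa (0.67, SE 0.04, edgeR adjusted p = 1.51e-63), beside 0.58 for its gene nAChRalpha3. Doc FBti0019430 had a log2 fold change of 0.38 (SE 0.08), and CHKov1 had 0.09.

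**Figure D2:**
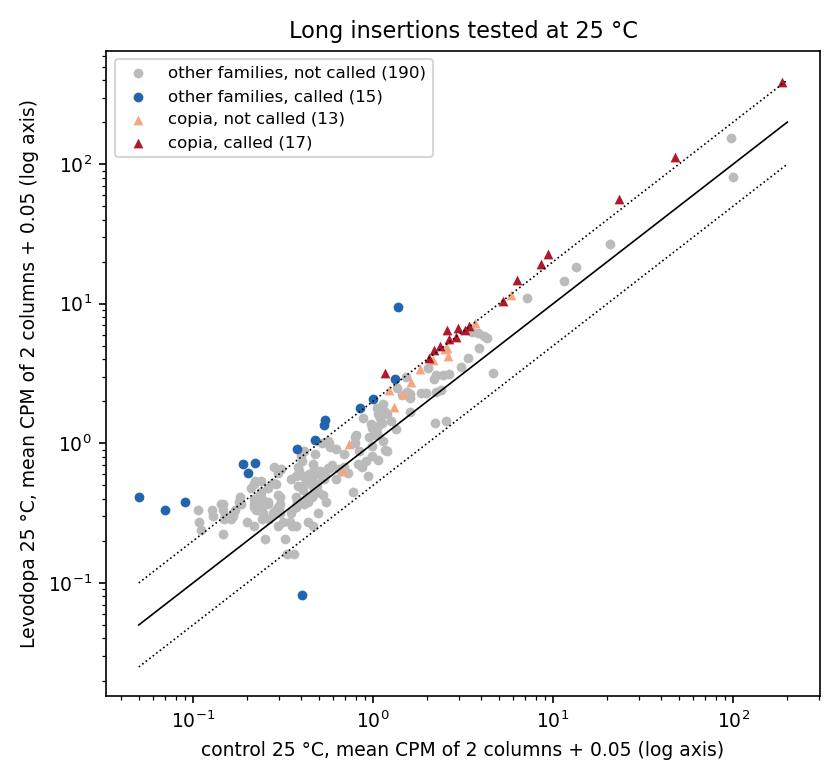
Mean TMM-scaled CPM in the 2 control columns (x) and the 2 Levodopa columns (y) at 25 °C for the 235 long insertions tested, on log axes with 0.05 CPM added; the solid line marks equal levels and dotted lines a 2-fold difference. Of the 30 copia insertions (triangles), 17 passed the test and 2-fold limit and 13 did not, and nearly all lie above the line.

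Summed by family, 7 of 66 families tested rose and 0 fell, where 4.91% of all features in that fit were called in either direction. They were copia, accord, gypsy10, Fw2, Stalker4, transib3 and G5. Over all columns 1 copy held 100% of the accord and of the gypsy10 counts, 95.9% of transib3 and 82.7% of Fw2. Those sums are therefore largely the single insertions again. G5 had 4 and 0 counts in control and 13 and 18 with Levodopa, and Stalker4 had 10 and 7 and then 27 and 40. At an unadjusted edgeR p under 0.05 there were 3 families with a negative log2 fold change, and DESeq2 called 4 families higher and 0 lower. By class, 26 of 170 LTR insertions tested rose (15.3%), 4 of 46 non-LTR (8.70%) and 1 of 12 DNA transposon insertions, with medians of 0.51, 0.71 and 0.42. Of the 26 LTR insertions that rose, 17 were copia, so the LTR share rests largely on that family. By position, 16 of the 31 that rose overlapped no gene, 5 lay on the same strand as a gene and 10 on the opposite strand. The medians were 0.52 for insertions with no gene (n = 100), 0.63 on the same strand (n = 49) and 0.46 on the opposite strand (n = 81).

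With Levodopa at 29 °C the long insertions differed little from the control in summed level and in median log2 fold change. A larger share of them than of all features passed the 2-fold rule given next (5.26 beside 2.65%). With 1 library per group no test was possible, so an insertion passed at a 2-fold difference or more, taken with 10 counts added to each library to damp low counts. Of 171 compared, 5 passed as higher and 4 as lower (2.92 and 2.34%), where 1.13% of all 11145 features were higher and 1.52% lower, and the median log2 fold change was 0.04 beside -0.01 over all features. None of the 9 remained among insertions with at least 50 counts in 1 library, and 23 and 15 passed when 3 counts were added. Shares of all features under these settings are not given here.

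Among insertions with at least 50 summed counts in any of the 5 groups, the largest rise was of FBti0019525, an LTR copy in CG43867, with 13 counts in control and 41 with Levodopa (2.91-fold, interval 1.53 to 5.91). The largest fall under the same limit was of copia FBti0059745, with 19 counts in control and 5 with Levodopa (4.12-fold, interval 1.49 to 14.1), which is the copy that rose at 25 °C. Below that limit, a diver copy on X with 43 counts in control and 16 with Levodopa had a larger fall (log2 fold change -1.11; named after its values were seen). The copia family had 579 counts in control and 441 with Levodopa, 1.42-fold lower (interval 1.26 to 1.62), and 3 of 12 copia insertions compared had a log2 fold change above 0. Summed by family, 1 of 70 families passed, gypsy4, as higher (2.6% of all features in that comparison passed in either direction). Short insertions off chromosome 4 had 13 higher and 20 lower of 255 at 29 °C. HeT-A FBti0062861 had 4 counts in control and 21 with Levodopa at 29 °C, a log2 fold change of 1.09, the opposite direction to 25 °C. The difference between temperatures was not tested, since the 2 tables were deposited separately.

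H1OE differed from the 29 °C control in more long insertions, in both directions, while their total hardly differed. Of 183 compared, 27 passed as higher and 19 as lower (14.8 and 10.4%), where 3.35% of all 11340 features were higher and 3.77% lower. The median log2 fold change was 0.07, beside 0.00 over all features. Short insertions off chromosome 4 had 34 higher and 15 lower of 283 (12.0 and 5.30%), and insertions on chromosome 4 had 13 and 4 of 197 (6.60 and 2.03%). Among insertions with at least 50 counts in a library, 8 passed as higher and 4 as lower. By chromosome arm, 3 were higher and 4 lower of 19 on 2L, 14 and 3 of 47 on 2R, 4 and 4 of 52 on 3L, 3 and 7 of 38 on 3R, and 3 and 1 of 26 on X. Shares of all features under the 50-count limit or by arm are not given here, so those counts are a description only. The comparison with control shares its control library with the Levodopa comparison above.

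The largest rise was copia FBti0019110 on 2L (2294097 to 2299243), which overlaps no gene. It had 0 counts in control, 0 with Levodopa and 208 in H1OE, so its level in H1OE was at least 61.1-fold higher than in control, taking 3 counts as the limit for the control library. At 25 °C the same copy had 63 and 73 counts in control and 170 and 181 with Levodopa, so only the 29 °C control and Levodopa libraries lacked it. Copia FBti0020031 in an intron of Eip63E, a cyclin-dependent kinase gene, on the same strand (3L, 3601354 to 3606606), had 33, 13 and 246 counts in control, Levodopa and H1OE. H1OE was 6.57-fold above control (interval 4.55 to 9.75), while Eip63E had 2609, 2521 and 2735 counts.

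Among insertions with at least 50 summed counts in a group, the next largest rises were of a 3S18 copy of 11421 bases on 2R with 6 counts in control and 62 in H1OE (9.10-fold, interval 3.95 to 25.8) and Stalker2 FBti0019625 on X with 15 and 80 (4.70-fold, interval 2.69 to 8.78). Copia FBti0018967 in Nipped-A followed with 3 and 34, a ratio of 9.98 (interval 3.14 to 50.8). Each of these had 6 to 17 counts with Levodopa, close to the control.

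The largest fall was diver FBti0018971, an LTR copy on 2R that overlaps no gene, with 215 counts in control, 223 with Levodopa and 8 in H1OE. H1OE was 30.5-fold below control (interval 15.2 to 71.6), and the 4 columns at 25 °C had 0 or 1 count. G2 FBti0019149, a non-LTR copy on 2L (11315294 to 11317659), had 104, 169 and 17 counts (6.94-fold below control, interval 4.14 to 12.4) and 0 in every 25 °C column. For both, the control and Levodopa libraries at 29 °C held over 100 counts and H1OE held far fewer.

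Copia copies moved in both directions in H1OE. FBti0019469 in Gprk2 had 135 counts in control, 93 with Levodopa and 45 in H1OE (3.41-fold below control, interval 2.41 to 4.88), and FBti0019183 had 75, 55 and 24 (3.55-fold, interval 2.21 to 5.88). Blood FBti0019384 on 3R, an LTR copy, had 32, 36 and 6 counts (6.05-fold, interval 2.5 to 17.7). Over the whole family H1OE had 863 copia counts beside 579 in control (1.31-fold higher, interval 1.18 to 1.46). The copies FBti0019110, FBti0020031 and FBti0018967, picked here because they were higher in H1OE, are part of that sum. The other copies together had 375 counts in H1OE beside 543 in control (1.64-fold lower, interval 1.44 to 1.88), a direction that this choice of copies favours.

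**Figure D3:**
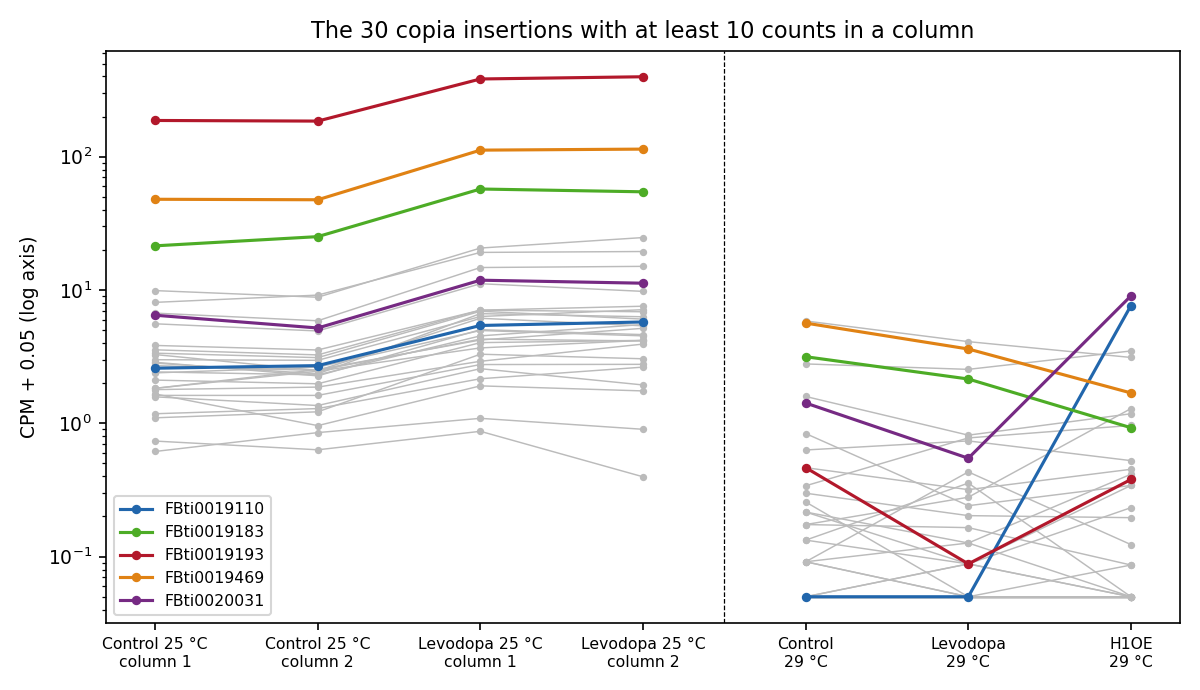
TMM-scaled CPM (log axis, 0.05 added) of the 30 copia insertions with at least 10 counts in a column, 1 line per insertion, over the 4 columns at 25 °C and the 3 libraries at 29 °C, which were scaled separately (dashed line). At 25 °C nearly all lines step up from control to Levodopa; at 29 °C FBti0019110 and FBti0020031 are high in H1OE, while FBti0019469 and FBti0019183 have their lowest level there.

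Several insertions had many counts in one library and almost none in the other. This pattern was looked for after the values were seen, as at least 20 counts in one library and at most 3 in the other. For each 25 °C group the 2 columns were summed, so the same limits apply to a greater depth there. Of 99 long insertions with at least 20 counts in either library, 7 were high in H1OE and low in control (7.07%, beside 0.547% of all features) and 4 the reverse (4.04%, beside 0.322%). Between Levodopa and control at 29 °C there were 0 and 0 of 85 (0.119 and 0.109% of all features). At 25 °C, 2 of 192 were high with Levodopa and low in control, and 0 the reverse (0.194 and 0.124% of all features). Against Levodopa, 5 of 99 were high in H1OE and 2 low (0.381 and 0.185% of all features). The shares of all features were not matched for count level. Only 118 of the 1077 long insertions reached 50 summed counts in a group, so the shares may not compare features of like abundance. Short insertions off chromosome 4 had 9 of 116 high in H1OE and low in control (7.76%) and 1 the reverse (0.862%), and at 25 °C 7 of 259 high with Levodopa and low in control (2.7%). The 7 were copia FBti0019110 and FBti0018967, Doc FBti0018904 with 0 counts in control and 41 in H1OE, FB FBti0020385 with 0 and 39, transib1 FBti0059778 with 1 and 29, invader2 FBti0063118 with 0 and 22, and a Max copy on 2L with 0 and 47. The 4 were BS FBti0019332 with 21 counts in control and 3 in H1OE, rover FBti0019343 with 22 and 0, pogo FBti0019365 with 43 and 1, and a diver copy on X with 43 and 0. With Levodopa those 4 had 15 to 29 counts. Of the 7 high in H1OE, the Max copy had 10 counts with Levodopa and the others had 0 to 6.

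Summed by family, 7 of 72 families passed as higher in H1OE than in control and 5 as lower, where 6.89% of all features in that comparison passed in either direction. Higher were Doc2, FB, Max, Dm88, X, transib1 and FW, and lower were diver, G2, BS, pogo and McClintock. The 2 long Doc2 insertions had 50 counts in control, 96 with Levodopa and 184 in H1OE (3.24-fold, interval 2.36 to 4.52), and the 6 of Max had 14, 30 and 83 (5.22-fold, interval 2.94 to 9.97).

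**Figure D4:**
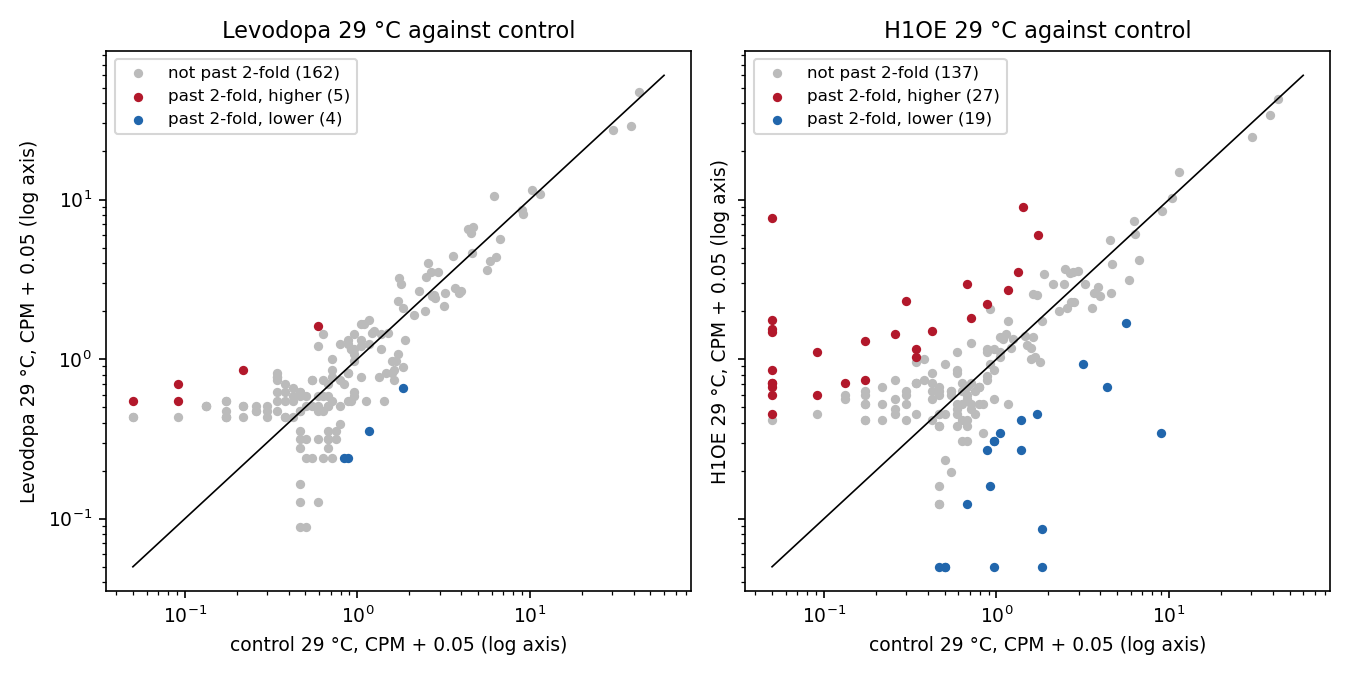
TMM-scaled CPM (log axes, 0.05 added) of long insertions at 29 °C in control (x) and in Levodopa or H1OE (y); each point is 1 insertion with at least 10 counts in 1 of the 2 libraries. Of 171 insertions 5 and 4 passed the 2-fold rule with Levodopa (left), and of 183 insertions 27 and 19 passed with H1OE (right), several of them at or near 0 in 1 library.

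H1OE also differed from Levodopa at 29 °C. Of 196 compared, 25 passed as higher and 18 as lower (12.8 and 9.18%), where 3.18% of all 11364 features were higher and 3.14% lower (6.32% in all), and the median was 0.07. By family, 5 of 76 passed as higher and 5 as lower, where 6.09% of all features passed in either direction. This comparison shares the H1OE library with the one above, and 7 of its 10 largest changes among insertions with at least 50 summed counts in a group were of insertions described there. Copia FBti0020031 was 18.1-fold higher than with Levodopa (interval 10.4 to 34.5), and diver FBti0018971 was 29.2-fold lower (interval 14.5 to 68.4). New by this rule were Doc FBti0018902 in Dgk, with 31, 19 and 94 counts in control, Levodopa and H1OE, HMS-Beagle FBti0019130 in uif with 42, 76 and 25, and Doc FBti0059646 on 2L with 22, 29 and 7.

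Many long insertions differed in level between the controls at 25 °C and 29 °C. The values stand side by side as a description only, because table, annotation release, stock and temperature cannot be told apart. Of 273 compared, 53 were higher and 81 lower at 29 °C by the 2-fold rule (19.4 and 29.7%), where 9.92% of all 12008 features were higher and 15.3% lower, and the median was -0.56 beside -0.06 over all features. Of 173 insertions with at least 20 summed counts in either control, 47 were at 3 or fewer at 29 °C (27.2%, beside 3.43% of all features), among them 15 copia, and 18 were at 3 or fewer at 25 °C (10.4%, beside 0.576%). Here too the shares of all features were not matched for count level. Summed by family name, 16 of 73 families were higher and 13 lower at 29 °C, where 24.7% of all features passed in either direction.

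Copia FBti0019193, the most abundant long insertion at 25 °C, had 10, 1 and 9 counts in control, Levodopa and H1OE at 29 °C, a control level 470-fold below that at 25 °C (interval 256 to 981). Copia FBti0019364 in beat-Vb had 244 and 241 counts in the 25 °C control and 0 in all 3 libraries at 29 °C, at least 78.2-fold lower. Copia FBti0020108 in bbg had 165 and 160 counts and 1, 0 and 0. The insertion of unnamed family in Snap25 had 83 and 100 and then 0 in all 3 libraries. Springer FBti0019466 had 111, 175 and 106 counts at 29 °C, its control level being 22.8-fold below the 25 °C control (interval 18.9 to 27.7).

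Other copies were abundant at 29 °C and near the low end at 25 °C. 3S18 FBti0019554 (X, 3415073 to 3421199), which lies within CG12535 and lncRNA:CR44999, had 47 and 33 counts in the 25 °C control and 922, 753 and 931 at 29 °C (23.8-fold, interval 18.9 to 30.3). 3S18 FBti0062015 had 0 and 3 counts and then 219, 210 and 231, and 3S18 FBti0062016 had 5 and 8 and then 248, 298 and 278. The 3S18 family sum was 91 and 91 counts in the 25 °C control, 162 and 164 with Levodopa at 25 °C, and 1590, 1448 and 1671 at 29 °C. Within springer the 2 leading copies went opposite ways: FBti0019578 on X had 42 and 52 counts in the 25 °C control and 730, 711 and 674 at 29 °C.

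**Figure D5:**
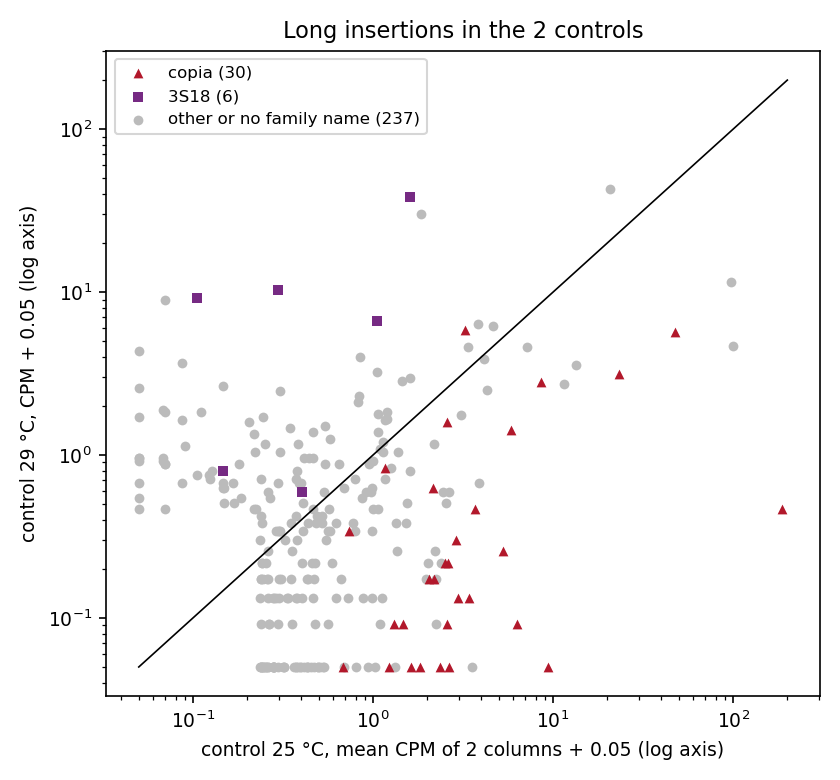
TMM-scaled CPM (log axes, 0.05 added) of the 273 long insertions compared between the control at 25 °C (mean of 2 columns, x) and at 29 °C (y). Most of the 30 copia insertions (triangles) lie below the line of equal levels, and the 6 3S18 insertions (squares) lie above it.

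Few genes of the pathways that silence elements passed the 2-fold limit with Levodopa at 25 °C. Few of all features did (5.16%), so this count does not set the pathways apart. Most siRNA and heterochromatin genes had smaller changes at an edgeR adjusted p under 0.05. Of 35 piRNA pathway genes listed, 33 were matched and 28 tested at 25 °C, and 1 rose and 0 fell, which is 3.57% beside 5.16% of all features called, with a median of 0.06. That gene was del, part of the Rhino complex that marks piRNA clusters, with 90 and 76 counts in control and 216 and 195 with Levodopa (log2 fold change 1.02). SoYb, a piRNA biogenesis factor, had 0.67 and did not pass. Of these 28 genes, 1 had an unadjusted edgeR p under 0.05 with a negative change, and DESeq2 called 1 higher and 0 lower. All 5 siRNA genes and all 20 heterochromatin genes were tested and 0 of either passed in edgeR or DESeq2, but 5 and 15 of them had an edgeR p under 0.05 both before and after adjustment, so these fell short of the 2-fold limit. Likewise 6 of the 28 piRNA genes had an adjusted p under 0.05. The medians were 0.21 for siRNA and 0.31 for heterochromatin genes. Their largest changes were 0.44 for Dcr-2, -0.42 for loqs, which encodes its partner protein, 0.70 for G9a, a histone H3 lysine methyltransferase, and -0.72 for HP1c.

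At 29 °C with Levodopa, 1 of 27 piRNA genes passed, shu, with 9 counts in control and 30 with Levodopa (beside 2.65% of all features), and piwi had 29 and 11 counts and did not pass. In H1OE 2 of 26 passed (7.69%, beside 7.13% of all features), with a median of 0.20. vas, a germline RNA helicase, had 6 counts in control, 7 with Levodopa and 57 in H1OE, and tej, a Tudor domain gene, had 42, 34 and 11. None of the siRNA or heterochromatin genes passed in either comparison with control. The largest changes among heterochromatin genes were of Su(var)3-9, the histone H3 lysine methyltransferase, at 0.91 with Levodopa and 0.53 in H1OE. Against Levodopa, 5 of 28 piRNA genes passed in H1OE (17.9%, beside 6.32% of all features). Of these, vas, piwi (11 counts with Levodopa and 36 in H1OE) and Boot (105 and 245), a factor in export of piRNA precursors, were higher, and shu (30 and 8) and tej were lower. Between the controls 7 of 28 passed, 5 higher and 2 lower at 29 °C (17.9 and 7.14%, beside 9.92 and 15.3% of all features), as did Dcr-2 (1.11) and Hmt4-20 (1.23), a histone H4 lysine methyltransferase.

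Because piRNA genes and many elements are active in the gonads, markers of germline and ovary are given beside these values. The 6 markers summed to 34.3 to 54.7 CPM over all columns, nearly all of it gcl and tj, and H1OE had the highest sum. Of these, vas and tj are also on the piRNA list. The defining genes osk, nos and bam had 0 counts in the 29 °C control and Levodopa libraries and 6, 2 and 7 in H1OE. In the 25 °C columns osk had 0 counts, nos 0 to 2 and bam 0 to 5. The 4 testis markers summed to 0.191 to 1.09 CPM. The part of such cells in the H1OE values was not tested.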

How the data were processed

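The authors deposited whole-number counts per feature and FPKM values, per the file headers; only the counts were used here. HISAT2 2.2.1 and dm6 are named in the submitters' processing notes, and the sources used here do not give the counting tool, strand setting, rule for reads with several matches or annotation release. The 29 °C counts covered 24034 features and the 25 °C counts 23882, with 1074 of the 1077 long insertions. Another 2 columns of values at 29 °C belong to no labelled sample and were not used.

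Family names came from symbols in a gene table matched by identifier (1054 of 1077), classes from general knowledge of the families, and gene overlaps from an Ensembl annotation in which all 1077 insertions had the same coordinates. The members and gene lists were chosen with earlier results of these data known.

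At 25 °C, edgeR 4.0.16 (R 4.3.3, quasi-likelihood F test, TMM, no covariates) was run on features with at least 10 counts in 1 column, with Benjamini-Hochberg adjusted p of 0.05 and 2-fold change. The common biological coefficient of variation was 2.87%. At 29 °C and between controls, 10 counts at the mean size of the libraries compared were added after TMM over features with at least 10 counts, and 2-fold was the limit; printed folds are ratios of scaled counts with no counts added. This form of the scaling was settled after counts of calls under several forms had been seen.

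Named insertions had at least 50 summed counts in a group and were the 10 with the highest CPM per kb and, per comparison, the 5 largest rises and 5 largest falls that passed, beside the neighbours of the length limit; others are said to be named after their values were seen. Alternatives covered scaling, DESeq2 1.42.0, count filters, added counts, a length trend, single columns left out, a column block, family sums and insertions overlapping no gene.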

Additional observations from a re-analysis of the deposited data

Results flagged for a closer look

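In each of the following, both Levodopa columns lay on one side of both control columns at 25 °C in CPM, and the Levodopa library lay on the other side of the control at 29 °C, with a counting interval that did not include a ratio of 1. The difference between temperatures was not tested, and the 2 tables were deposited separately. These items were picked because their directions differed, and the number screened is not given here. The single copies of copia and 3S18 are part of their family sums and may share reads. Some values of single copies at 29 °C rest on few counts. The log2 fold changes at 25 °C were 1.11 for the copia family sum, 1.26 for copia FBti0019183, 1.07 for FBti0019193, 1.24 for FBti0019469, 1.00 for FBti0020031 and 1.49 for FBti0059745. At 29 °C the copia sum was 1.42-fold lower with Levodopa (interval 1.26 to 1.62), and the 5 copies had log2 fold changes of -0.49, -0.90, -0.60, -0.98 and -1.01 in the same order, of which the last passed the 2-fold rule. The 3S18 family sum had 0.56 at 25 °C and -0.25 at 29 °C, and its copy FBti0019554 had 0.51 and -0.40. Springer FBti0019578 had 0.32 and -0.15. Springer FBti0019466 went the opposite way, with -0.32 at 25 °C and 0.50 at 29 °C.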

How the results depend on the processing

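At 25 °C the 31 insertions called higher became 12 with the length trend removed, 16 among those overlapping no gene and 7 with family sums, and 20 to 28 when single columns were left out (20 without the second Levodopa column). The 1 called lower became 0 with DESeq2, with filters of 1 or 50 counts and with family sums, 2 with the length trend removed, and 0 to 1 with single columns left out. With the column number as a replicate block there were 27 higher and 1 lower, with a median of 0.54. The median of 0.53 was 0.24 with the length trend removed, 0.31 with the size rule on summed columns, 0.48 with family sums, 0.49 and 0.74 with filters of 1 and 50 counts, 0.56 with DESeq2, 0.67 with total-count scaling and 0.50 to 0.63 with single columns left out.

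At 29 °C the counts followed the low counts. With 3 counts added, Levodopa against control went from 5 higher and 4 lower to 23 and 15, H1OE against control from 27 higher to 41, and H1OE against Levodopa from 25 and 18 to 40 and 36. With a filter of 50 counts, which leaves fewer insertions, they were 0 and 0, 8 and 4, and 7 and 3. Among insertions overlapping no gene, the counts were 2 higher and 3 lower with Levodopa, 13 and 9 in H1OE against control, and 13 and 9 against Levodopa. Family sums gave 1 and 0, 7 and 5, and 5 and 5. With the length trend removed, 7 were lower with Levodopa. Medians near 0 changed sign: with Levodopa 0.04 became -0.07 with the 50-count filter and -0.01 with the length trend removed, and was 0.08 with total-count scaling and 0.01 for insertions overlapping no gene. H1OE against control went from 0.07 to -0.02 with the 50-count filter, 0.00 with the trend removed, 0.12 with total counts, 0.18 for no gene and 0.17 for family sums. H1OE against Levodopa went from 0.07 to 0.00 with the 50-count filter, 0.09 with 3 counts, total counts or family sums, and 0.22 for no gene.

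Family sums here keep the insertions of no family name as single insertions, which adds 1 higher and 1 lower to the counts over named families between controls. Between controls, 53 higher became 15 with the 50-count filter, 20 for no gene and 17 with family sums. The 81 lower became 48, 33 and 14 under the same settings, 124 with 3 counts added and 140 with the trend removed. The median of -0.56 was -1.50 with the 50-count filter, -0.76 with 3 counts, -1.04 with the trend removed, -0.65 for no gene, -0.54 with DESeq2 size factors, -0.49 with total counts, -0.60 with TMM over all features and the mean of all libraries (chosen after seeing the data), and turned to 0.04 with family sums. TMM over all features moved no count by over 1.5 times. The cause was not tested beyond what each setting removes. Of 743 further values for single insertions and families under these settings, 719 kept direction and side of the threshold, 18 fell below it, 6 passed it and none reversed.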
